A study of Mus musculus with 4 samples.

Results

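The barcodes described here were the single-cell barcodes of 4 mouse retina libraries in which cone transcripts were present and S opsin outweighed M opsin. Barcodes needed 500 or more UMIs (unique molecular identifiers, each counting 1 captured RNA molecule), 300 or more genes and a mitochondrial share of no more than 20%. They also had to hold at least 2 UMIs of Arr3, at least 1 of Gnat2 and at least 10 of Arr3, Gnat2, Pde6h and Pde6c together. S opsin (Opn1sw) had to reach 5 UMIs and exceed 2 times the UMIs of M opsin (Opn1mw). The rule found 832 such barcodes among 21410 in the files, of which 19716 passed the quality limits and 1585 met the cone criteria. They numbered 241 and 134 in Diabetic 1 and Diabetic 2, and 370 and 87 in Control 1 and Control 2. The barcodes were thus chosen by their counts of both opsins and of 4 cone genes, so those genes are given as a description only and were not tested.

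The study compared retinas of diabetic mice with retinas of control mice, with 2 libraries labelled Diabetic and 2 labelled Control. Live cells had been enriched with magnetic beads for CD31 (PECAM1), a surface protein of blood vessel endothelium, and the labels call all of the cells CD31+. The labels gave no strain, age, diabetes model, duration or number of animals per library. The p-values below therefore measured the spread between these libraries, which may be technical.

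Cones are the photoreceptors of daylight and colour vision, and rods those of dim light. A mouse cone can make both opsins, S opsin for short wavelengths and M opsin for middle wavelengths, and their ratio follows a gradient in which S opsin prevails in the ventral retina and M opsin in the dorsal retina. Thyroid hormone receptor beta (Thrb) and the retinoid receptor Rxrg take part in setting that pattern, and the homeobox factor Crx activates both opsin genes. In either photoreceptor an opsin activates a transducin (Gnat2, Gnb3 and Gngt2 in cones, Gnat1 in rods), which switches on a phosphodiesterase (Pde6c and Pde6h in cones) and so closes cyclic nucleotide gated channels (Cnga3 and Cngb3 in cones), after which kinases and arrestins (Grk1, Arr3, Sag) shut the opsin off.

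The 250 bases before the RefSeq start of Opn1sw (chr6:29380514-29380763, minus strand) and 248 bases before the annotated Opn1mw gene (chrX:74127216-74127463, plus strand) are shown because the counts of these 2 genes decided which barcodes entered the group. Sequences are from RefSeq on GRCm38.p6, 5′ to 3′ along the gene, with capitals marking TAATC, a core of the sites that Crx binds, searched on both strands (TAATC or GATTA).
Opn1sw: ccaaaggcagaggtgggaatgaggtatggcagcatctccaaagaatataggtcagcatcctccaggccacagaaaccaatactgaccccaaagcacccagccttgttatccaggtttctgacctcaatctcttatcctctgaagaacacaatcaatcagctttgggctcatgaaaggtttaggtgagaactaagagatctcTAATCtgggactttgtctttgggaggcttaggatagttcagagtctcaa
Opn1mw: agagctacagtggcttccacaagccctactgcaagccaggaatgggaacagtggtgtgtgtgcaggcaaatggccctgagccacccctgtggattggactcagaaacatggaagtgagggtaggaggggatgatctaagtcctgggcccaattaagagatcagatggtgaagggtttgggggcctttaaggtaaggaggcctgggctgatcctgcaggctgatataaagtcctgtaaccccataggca
The Opn1sw window held 1 match, starting 49 bases before the RefSeq start, and the Opn1mw window held 0. Of 32851 promoter windows of 250 bases in the same table, 19.8% held at least 1 match. The Opn1sw window lies in an intron of a longer annotated Opn1sw transcript (gene chr6:29376671-29388468).

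The 4 libraries held 29792902 to 58792636 UMIs each, and their passing barcodes had medians of 3391 to 5126 UMIs. The S-opsin barcodes summed to 8328882 and 7474445 UMIs in the Diabetic libraries and to 13098353 and 5373242 in the Control libraries. Libraries shared 40 barcode sequences in all, 3 of them those of S-opsin barcodes and 0 between S-opsin barcodes of different libraries. Levels below are UMIs of a gene summed over barcodes of a kind in a library and scaled to the sum of all their UMIs as CPM, counts per 1000000 UMIs. The reads came from the 3′ ends of transcripts, so CPM is not scaled to gene length.

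Checked against marker genes, the barcodes carried cone transcripts together with nearly the rod transcript content of rod barcodes. Cone genes that the rule did not use were present. Gngt2 reached 751.5 and 675.1 CPM in the Diabetic and 576.9 and 690.5 CPM in the Control S-opsin barcodes, against 56.6 and 32.7 CPM in Diabetic and 75.7 and 38.9 CPM in Control rod barcodes. Rod barcodes were those without an Arr3 UMI with at least 1 Gnat1 UMI, in which a set of 5 rod genes took at least 5% of UMIs, and there were 2109 of them. Cnga3 stood at 8.88 and 11.2 CPM in the Diabetic and 8.93 and 8.37 CPM in the Control S-opsin barcodes, and at most at 0.773 CPM in any library's rod barcodes.

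Rod transcripts were abundant as well. Nrl, the transcription factor that sets rod fate, had 1887 and 1913 CPM in Diabetic and 2035 and 2013 CPM in Control S-opsin barcodes, with 2334 and 2286 CPM in Diabetic and 2048 and 2153 CPM in Control rod barcodes. The 9 rod markers together came to 59794 and 59076 CPM in the Diabetic S-opsin barcodes and to 68174 and 70902 CPM in the Control ones, all 9 being detected in each library. The median S-opsin barcode held 36234 UMIs and 7340 genes, against 4289 UMIs and 2081 genes for the median rod barcode. The files thus went against reading the group as pure cones, and its members are called S-opsin barcodes here. Scrublet, a doublet caller, marked 15, 1, 1 and 0 of them in Diabetic 1, Diabetic 2, Control 1 and Control 2. Of all passing barcodes of these libraries it marked 6.31%, 2.81%, 0.562% and 1.97%. Except in Control 1 that share was set in advance by an expected rate.

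**Figure D1:**
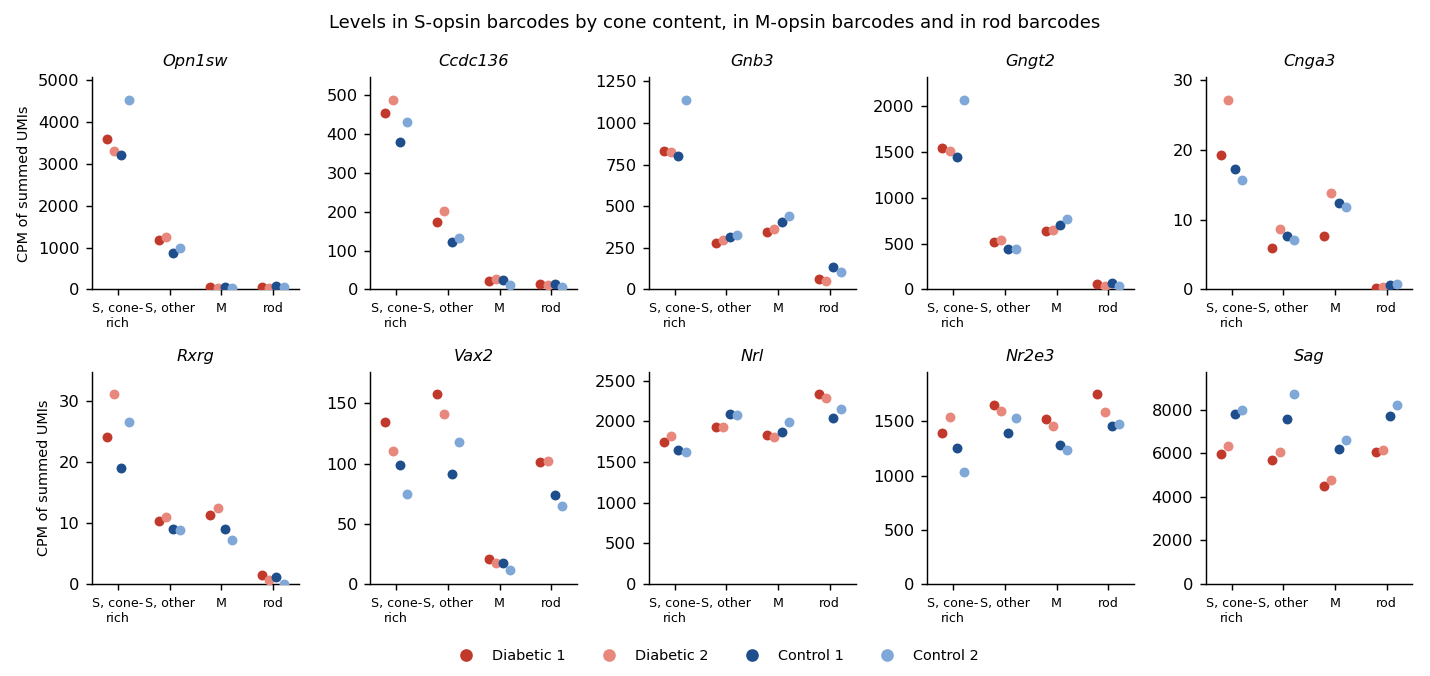
Level (CPM of summed UMIs, linear axis) of 10 genes in cone-rich S-opsin barcodes, the other S-opsin barcodes, M-opsin barcodes and rod barcodes, with 1 point per library coloured as in the legend. Gngt2 and Gnb3 were at 801.8 CPM or more in cone-rich S-opsin barcodes and at most 134.3 CPM in rod barcodes, whereas Nrl lay between 1626 and 2334 CPM in the S-opsin and rod barcodes.

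Markers of other cell types were present at lower levels. Pericyte and smooth muscle markers (9 of 9 detected) summed to 901.6 and 888.5 CPM in the Diabetic and 1083 and 1001 CPM in the Control S-opsin barcodes, and bipolar cell markers (11 of 11 detected) to 792.8 and 867.2 CPM in the Diabetic and 826.4 and 774.9 CPM in the Control ones. The pericyte list was thus lower in Diabetic, and bipolar markers overlapped between the groups. In rod barcodes the pericyte list came to 1084 to 1300 CPM, above every S-opsin sum, and the bipolar list to 613.6 to 656.3 CPM. What part of these sums came from pericytes or bipolar cells was not tested. Müller glia markers (10 of 10 detected in each library) summed to 981.8 and 1138 CPM in the Diabetic and 846.1 and 669.6 CPM in the Control S-opsin barcodes, against 579.6 to 802.4 CPM in rod barcodes. Endothelial markers (10 of 10 detected) summed to 326.2 and 234.3 CPM in the Diabetic and 250.5 and 102.9 CPM in the Control S-opsin barcodes. Ganglion cell, astrocyte, pigment epithelium and microglia markers came to at most 17.6 CPM in any S-opsin sum. Neutrophil markers differed between the groups, with 40.5 and 17.8 CPM in Diabetic (5 of 5 detected) and 0.916 and 0.186 CPM in Control (3 and 1 of 5 detected).

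S-opsin barcodes varied widely in size, from 1183 to 189450 UMIs, while the median S opsin count over the pooled libraries stayed between 31 and 91 UMIs in every size class. Within single libraries the medians of the size classes ran from 23.5 UMIs (Control 1, 168 barcodes) to 150 UMIs (Control 2, 6 barcodes). The 19 barcodes under 5000 UMIs had a median of 41 Opn1sw UMIs, and the 69 of 80000 UMIs and over had a median of 91. As a level this was 12640 CPM in the smallest and 982.4 CPM in the largest. The 5 rod genes took a median of 1.70% of UMIs in the smallest barcodes, 3.62% in the 46 barcodes of 5000 to under 10000 UMIs and 5.35% in the 108 of 10000 to under 20000 UMIs. In the 3 larger size classes the medians were 5.93%, 5.68% and 5.53%, so the rod share was lowest in the smallest barcodes. M-opsin barcodes likewise had the lowest share in the smallest size class, with 1.76% rod genes under 5000 UMIs (21 barcodes) and 5.47% at 80000 UMIs and over (28 barcodes).

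**Figure D2:**
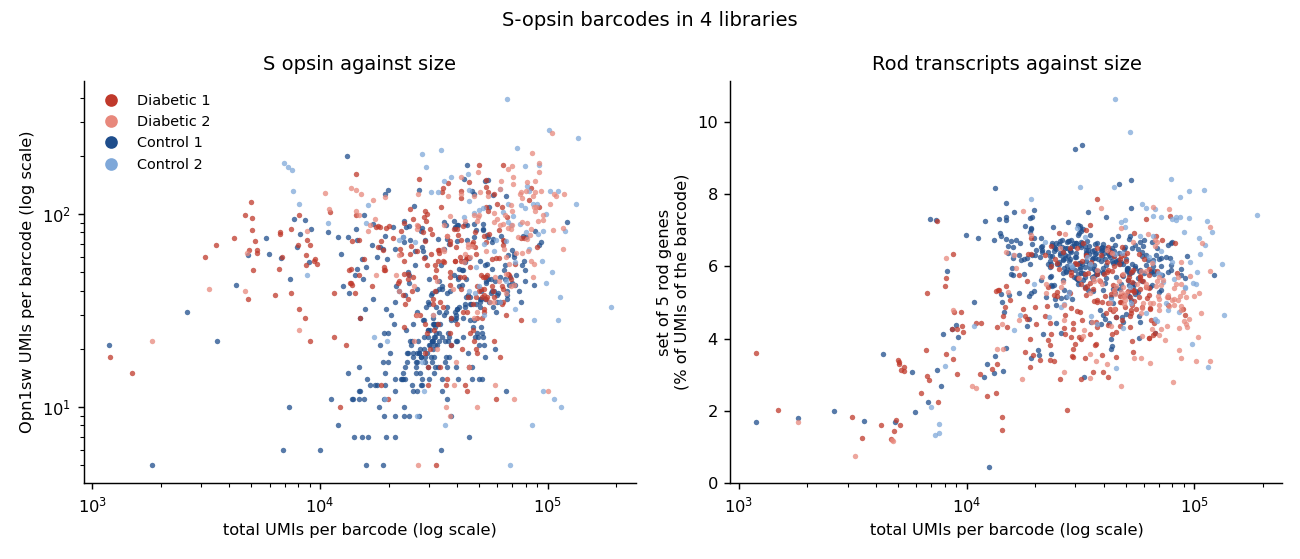
Each point is 1 S-opsin barcode, with total UMIs on a log x axis, and Opn1sw UMIs (left, log y axis) or the percentage of UMIs from 5 rod genes (right, linear y axis); colours are libraries. Opn1sw counts overlap across the whole size range, where entry needed at least 5 Opn1sw UMIs at any size. The rod percentage is lowest in the smallest barcodes, with medians of 1.70% under 5000 UMIs and 5.53% at 80000 UMIs and over.

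The barcodes also differed in the balance of the opsins. Opn1sw had medians of 55 and 85.5 UMIs in the Diabetic and 33 and 89 UMIs in the Control libraries, and Opn1mw medians of 5 and 6 UMIs in the Diabetic and 6 and 7 UMIs in the Control libraries. Of the 832 barcodes, 85 held no Opn1mw UMI and 483 held at least 5. The ratio of the opsins was over 5 in 521 barcodes, over 3 and at most 5 in 168, and over 2 and at most 3 in 143, just inside the limit. A further 188 barcodes with at least 5 Opn1sw UMIs lay just outside it, at ratios over 1 and at most 2. Near the other limits, 26 members had 5 to 9 Opn1sw UMIs and 38 had 10 to 14 UMIs of the 4 cone genes, while 14 barcodes with 3 or 4 Opn1sw UMIs and 21 with 7 to 9 cone UMIs stayed outside. Barcodes without Opn1mw were smaller (medians of 13836 and 26943 UMIs in Diabetic, 21695 and 47547 UMIs in Control) than those with it (34992 and 61313 UMIs in Diabetic, 32532 and 63467 UMIs in Control). They numbered 33, 20, 22 and 10 in Diabetic 1, Diabetic 2, Control 1 and Control 2, too few in Control 2 for a test between them.

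**Figure D3:**
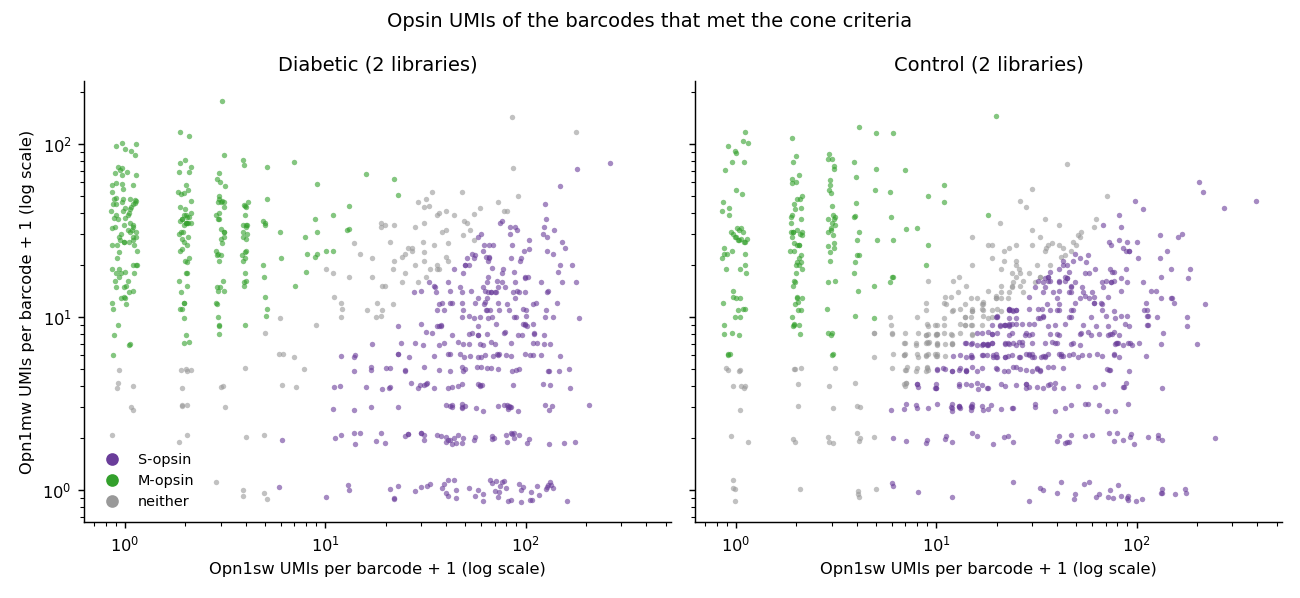
Opn1sw against Opn1mw UMIs plus 1 (log axes) of the 1585 barcodes that met the cone criteria, Diabetic libraries on the left and Control libraries on the right. S-opsin barcodes are purple, M-opsin barcodes green and the 329 with neither dominant grey; in both panels a band of barcodes joins the S-opsin and M-opsin ends.

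S-opsin barcodes made up 49.5% (exact 95% interval 44.96% to 54.0%) and 54.9% (48.4% to 61.3%) of cone barcodes in the Diabetic libraries, and 53.4% (49.6% to 57.2%) and 54.0% (46.0% to 61.9%) in the Control libraries. The Diabetic mean was 1.51 percentage points lower, a difference within the spread between libraries (exact permutation test over 4 libraries, two-sided p = 1; the design allows no p under 0.333). The intervals cover counting error only. The direction turned when single settings changed: with a ratio of 5 in place of 2 the Diabetic mean was 5.25 points higher, and without Diabetic 1 it was 1.20 points higher, whereas with a ratio of 1 it was 5.84 points lower (59.3% in Diabetic, 65.1% in Control). After every cone barcode was thinned to 1000 UMIs the shares were 9.09% and 9.88% in Diabetic and 4.62% and 11.2% in Control, resting on 44, 24, 32 and 18 barcodes that then still met the opsin rule. M-opsin barcodes, taken by the mirrored rule, numbered 172 and 71 in Diabetic and 130 and 51 in Control.

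S-opsin barcodes were set against M-opsin barcodes of the same libraries to see what else went with S opsin. Among called genes of at least 50 CPM the highest folds were those of Ccdc136, the chromosomal neighbour of Opn1sw, Vax2 and Vax2os, and some rarer transcripts differed by as much or more. Of 12779 genes tested, 170 (1.33%) were higher and 241 (1.89%) lower in S-opsin barcodes, 3.22% in all, at an adjusted p under 0.05 (edgeR quasi-likelihood test with the library as a term, Benjamini-Hochberg adjustment over all genes tested). Without Diabetic 2 the genes called higher numbered 110, and without the library as a term 18 were higher and 26 lower. With only the cone-rich barcodes of both kinds, in which the 4 cone genes took at least 0.2% of UMIs, 28 genes were higher and 43 lower.

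Ccdc136, a coiled-coil protein gene (chr6:29396309-29426994, GRCm38), starts 7841 bases upstream of the longer annotated Opn1sw gene, on the opposite strand. It showed the highest fold among the named genes of at least 50 CPM. It stood at 235.6 and 240.2 CPM in Diabetic and 155.8 and 177.4 CPM in Control S-opsin barcodes, against 21.5 and 27.6 CPM in Diabetic and 24.1 and 11.1 CPM in Control M-opsin barcodes. The kinds did not overlap in any library, and the difference was a log2 fold change of 3.25 ± 0.08 (SE; edgeR adjusted p = 6.7e-35), or 9.5-fold. It was 4.03 in cone-rich barcodes. Rod barcodes held Ccdc136 at 5.67 to 15.2 CPM, and cone-rich S-opsin barcodes held it at 452.4 and 486.7 CPM in Diabetic and 379.6 and 430.1 CPM in Control.

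Vax2, a homeobox factor of the ventral retina (chr6:83711264-83738313), was likewise higher in S-opsin barcodes. Its level was 152.2 and 137.0 CPM in Diabetic and 92.1 and 111.5 CPM in Control S-opsin barcodes, against 20.4 and 17.5 CPM in Diabetic and 17.2 and 11.8 CPM in Control M-opsin barcodes (log2 fold change 2.86 ± 0.08, edgeR adjusted p = 2.0e-32). Vax2os, a noncoding transcript on the other strand that overlaps Vax2 by 938 bases, had 1364 and 1451 CPM in Diabetic and 924.6 and 1169 CPM in Control S-opsin barcodes, against 244.5 and 251.8 CPM in Diabetic and 248.6 and 175.1 CPM in Control M-opsin barcodes (log2 fold change 2.40 ± 0.06, edgeR adjusted p = 6.7e-35). In both genes every S-opsin sum lay above every M-opsin sum. The overlap lies at the 5′ ends of both genes (Vax2os chr6:83692806-83712201, minus strand), whereas the reads came from 3′ ends. Strand use in the counting was not given in the sources used here, and the part of reads from the overlap was not tested. Unlike Ccdc136, Vax2 was also abundant in rod barcodes (101.3 and 102.1 CPM in Diabetic, 74.2 and 64.9 CPM in Control). Its level in cone-rich S-opsin barcodes, 134.2 and 110.7 CPM in Diabetic and 99.1 and 74.9 CPM in Control, lay within the range of the other S-opsin barcodes and rod barcodes combined.

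Of the dorsal genes, Nr2f2 and Aldh1a1 were lower. Nr2f2, a nuclear receptor of the dorsal retina, had 8.04 and 5.75 CPM in Diabetic and 18.02 and 5.77 CPM in Control S-opsin barcodes, against 59.5 and 56.4 CPM in Diabetic and 66.5 and 61.1 CPM in Control M-opsin barcodes. Its log2 fold change was -2.58 ± 0.13 (edgeR adjusted p = 1.2e-21), and no S-opsin sum reached an M-opsin sum. Aldh1a1, which makes retinoic acid in the dorsal mouse retina, had 3.84 and 5.35 CPM in Diabetic and 5.65 and 4.65 CPM in Control S-opsin barcodes, against 16.6 and 17.8 CPM in Diabetic and 20.4 and 18.7 CPM in Control M-opsin barcodes (log2 fold change -1.89 ± 0.14, edgeR adjusted p = 4.1e-14). Ephb2, an ephrin receptor of the ventral retina, was higher in S-opsin barcodes at a low level (4.05 to 8.29 CPM against 1.53 to 4.23 CPM in M-opsin barcodes, ranges that overlap; log2 fold change 1.04 ± 0.23, edgeR adjusted p = 0.0028, lost without Diabetic 1). Of the 18 listed S-cone and dorsal-ventral genes, 13 passed the low-count filter, 4 were higher (Ccdc136, Vax2, Ephb2 and Kcne2) and 3 lower (Nr2f2, Aldh1a1 and Thrb). Their median log2 fold change was 0.11, beside 0.0048 over all 12779 genes. Nr2f2 and Aldh1a1 lie under the 50 CPM used to choose named genes and are named from the list.

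**Figure D4:**
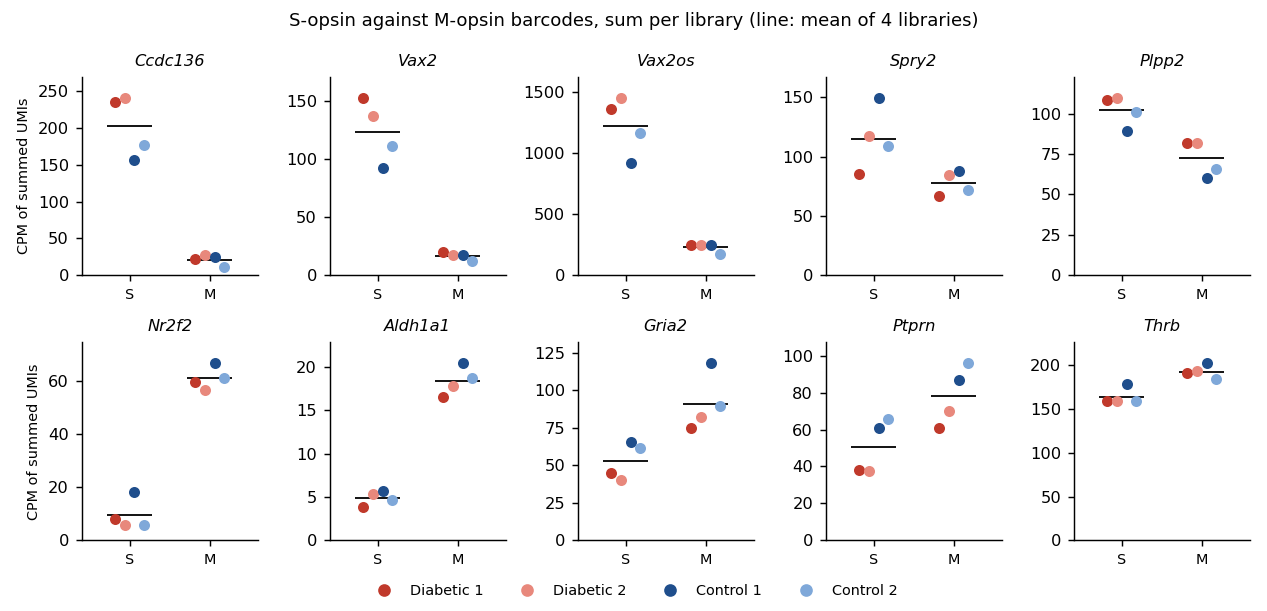
Level (CPM of summed UMIs, linear axes from 0) of 10 genes in S-opsin (left of each panel) and M-opsin barcodes (right), 1 point per library and a line at the mean of 4 libraries. Ccdc136, Vax2 and Vax2os are high in S-opsin sums, Nr2f2 and Aldh1a1 in M-opsin sums, without overlap; the ranges of Spry2 and of Ptprn overlap.

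Among the known regulators of cone fate, Thrb differed slightly, with 159.4 and 159.6 CPM in Diabetic and 179.3 and 159.1 CPM in Control S-opsin barcodes, against 191.3 and 194.2 CPM in Diabetic and 202.3 and 184.3 CPM in Control M-opsin barcodes (log2 fold change -0.22 ± 0.04, edgeR adjusted p = 0.00018). Rxrg (log2 fold change 0.29 ± 0.14, edgeR adjusted p = 0.357) and Crx (0.06 ± 0.03, edgeR adjusted p = 0.444) did not pass the test. Of the 24 listed regulators, 22 were tested, Otx2 and Nr2e3 were slightly higher (log2 fold changes 0.14 and 0.14) and Nr2f2 and Thrb lower. Otx2 and Nr2e3 each lost their call when single libraries were left out, Otx2 without Diabetic 1, Diabetic 2 or Control 2 and Nr2e3 without Diabetic 2 or Control 2. The median of the list was 0.04.

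In the phototransduction list, 17 of 23 genes were tested, 4 were higher in S-opsin barcodes (Grk1, Rgs9bp, Guca1b and Kcnv2) and 2 lower (Cngb3 and Rcvrn), with a median log2 fold change of 0.04 and a largest one of 0.23. Grk1, the kinase that phosphorylates light-activated opsin, had 813.6 and 981.6 CPM in Diabetic and 1225 and 1347 CPM in Control S-opsin barcodes, against 709.2 and 836.2 CPM in Diabetic and 1027 and 1189 CPM in Control M-opsin barcodes (log2 fold change 0.23 ± 0.03, edgeR adjusted p = 1.5e-06). Kcnv2 lost its call without any of the 4 libraries, Guca1b without Diabetic 1 or Diabetic 2, Rgs9bp without Diabetic 1, Diabetic 2 or Control 1, and Cngb3 without Control 1 or Control 2. In cone-rich barcodes none of the 6 was called, nor was Thrb, whereas Vax2 (2.94), Vax2os (2.65), Nr2f2 (-3.14), Aldh1a1 (-1.45) and Gria2 (-0.98) kept their call there. Sag, the rod arrestin, was also higher in S-opsin barcodes (log2 fold change 0.36 ± 0.03, edgeR adjusted p = 6.8e-12). Gnb3 and Gngt2, the other cone transducin subunits, had log2 fold changes of 0.06 ± 0.04 and -0.02 ± 0.04 (edgeR adjusted p = 0.526 and 0.931). Rod markers together came to 56671 and 56152 CPM in Diabetic and 63733 and 67081 CPM in Control M-opsin barcodes, below the S-opsin sum of the same library each time, and the part of this in the small differences was not tested.

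The remaining named genes with at least 50 CPM differed by less than a log2 unit. Higher in S-opsin barcodes were Spry2, an inhibitor of growth factor signalling (log2 fold change 0.57 ± 0.06, edgeR adjusted p = 1.0e-10), Plpp2, a lipid phosphatase (0.50 ± 0.05), Otx2os1 (0.44 ± 0.05), Kcne2, a potassium channel subunit (0.37 ± 0.07), Hsf2, a heat shock factor (0.37 ± 0.07), and H2bu2 (0.35 ± 0.04). Lower were Gria2, an AMPA glutamate receptor subunit, with 44.8 and 40.1 CPM in Diabetic and 65.5 and 61.4 CPM in Control S-opsin barcodes, against 75.1 and 82.0 CPM in Diabetic and 118.0 and 89.7 CPM in Control M-opsin barcodes (log2 fold change -0.79 ± 0.06, edgeR adjusted p = 5.3e-14). Ptprn (-0.62 ± 0.06), Acbd6 (-0.61 ± 0.07), Rd3l (-0.50 ± 0.05), Pals2 (-0.48 ± 0.05), Lrtm1, Ttll11, Nav1, Prdx6 and Plxna2 were lower too. The same direction in every library was a condition for naming the genes of this paragraph. Kcne2 lost its call without Diabetic 1 and Hsf2 without Control 1.

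Several rarer transcripts, chosen after their values were seen, stood out by fold. En2, a homeobox gene, had 122 UMIs over all S-opsin barcodes and 1 UMI over all M-opsin barcodes. Syndig1l had 25.7 and 23.8 CPM in Diabetic and 18.2 and 23.6 CPM in Control S-opsin barcodes, against 4.002 and 2.54 CPM in Diabetic and 2.99 and 3.05 CPM in Control M-opsin barcodes (log2 fold change 2.83 ± 0.16, edgeR adjusted p = 6.2e-19). Cacna1h, a T-type calcium channel (2.34 ± 0.24), Wscd2 (2.21 ± 0.31), Eya1, a developmental phosphatase (2.19 ± 0.38), Tenm3, a cell adhesion protein (1.66 ± 0.32), Srcin1 (1.52 ± 0.16) and Nrxn3, a synaptic adhesion protein (1.22 ± 0.13) were called higher as well. The dorsal genes Efnb2 (-0.96 ± 0.29, edgeR adjusted p = 0.057) and Tbx2 (-0.53 ± 0.24, edgeR adjusted p = 0.307) did not pass the test. Socs3, a feedback inhibitor of cytokine signalling and a listed gene of photoreceptor stress, was higher in S-opsin barcodes (log2 fold change 1.34 ± 0.21, edgeR adjusted p = 7.6e-06), with 12.01 and 10.4 CPM in Diabetic and 6.34 and 6.14 CPM in Control, against 6.73 and 3.10 CPM in Diabetic and 1.74 and 1.53 CPM in Control M-opsin barcodes.

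The other lists showed little between the kinds of barcode. Of the 70 nuclear OXPHOS genes tested, 1 was higher (Atp5k) and 0 lower, and of 12 mitochondrial ones 0 were called (edgeR). Of 26 outer segment and cilium genes 1 was higher (Fscn2), and of 29 ribbon synapse genes 1 was higher (Elfn2) and 2 lower (Syt1 and Cplx3).

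Diabetic and Control S-opsin barcodes were then compared, the contrast the study was built on. Mt1, Zc3h6, Pcp4l1, Bnip3, Cirbp and Gadd45b were among the genes higher in Diabetic, whereas both mitochondrial ribosomal RNAs, 8 chaperones of the 2 stress lists and some genes of photoreceptor function were lower. Of 13738 genes tested, 196 (1.43%) were higher and 169 (1.23%) lower, 2.66% in all (edgeR quasi-likelihood test, Benjamini-Hochberg, adjusted p under 0.05). The calls leaned on single libraries. Without Diabetic 1 only 6 and 1 were called, without Diabetic 2 there were 38 and 13, and without Control 1 there were 519 higher and 475 lower. Among the cone-rich S-opsin barcodes 24 and 10 genes were called, and after thinning to 1000 UMIs 1 and 6. Of 49 called genes picked by the rule for named genes or from a list, 3 (Zc3h6, Rnf123 and Gadd45b) kept their call without Diabetic 1, 19 without Diabetic 2, 46 without Control 1 and 37 without Control 2.

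Of the genes with at least 50 CPM, Mt1, a metallothionein that binds zinc and copper, rose most in Diabetic. It had 98.7 and 57.8 CPM in Diabetic and 32.8 and 25.1 CPM in Control S-opsin barcodes (log2 fold change 1.34 ± 0.23, edgeR adjusted p = 0.022). Zc3h6, a CCCH zinc finger gene, had 76.5 and 72.3 CPM in Diabetic and 33.7 and 34.6 CPM in Control (log2 fold change 1.07 ± 0.09, edgeR adjusted p = 0.0013). A lack of overlap between the groups was a condition for naming both genes. Zc3h6 had the tighter libraries, and its log2 fold change in cone-rich barcodes was 1.02. Pcp4l1 had 226.7 and 196.0 CPM in Diabetic and 122.2 and 115.4 CPM in Control (log2 fold change 0.77 ± 0.10, edgeR adjusted p = 0.010). Bnip3, a mitochondrial protein of mitophagy induced by low oxygen, had 81.5 and 79.2 CPM in Diabetic and 47.2 and 44.1 CPM in Control (0.75 ± 0.09, edgeR adjusted p = 0.0081). Cirbp, an RNA-binding protein induced by cold and stress, had 522.3 and 450.2 CPM in Diabetic and 278.7 and 298.3 CPM in Control (0.70 ± 0.10, edgeR adjusted p = 0.015). The histone genes H3f3b and H2bu2 (0.69 and 0.68), which have near-identical copies, and Mxra7, A930005G22Rik and Gm45716 (0.71, 0.96 and 0.71) completed the 10 highest.

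Ccdc136, which marked S-opsin against M-opsin barcodes, was also higher in Diabetic S-opsin barcodes (235.6 and 240.2 CPM against 155.8 and 177.4 CPM in Control; log2 fold change 0.46 ± 0.09, edgeR adjusted p = 0.033). That call was lost without Diabetic 1, Diabetic 2 or Control 1 and in cone-rich barcodes, where the log2 fold change was 0.19. Vax2, at 0.46 ± 0.11, and Vax2os, at 0.37 ± 0.11, did not pass the test (edgeR adjusted p = 0.060 and 0.108). The opsins themselves are a description here: Opn1sw had 1724 and 1527 CPM in Diabetic and 1176 and 1523 CPM in Control, and Opn1mw 199.0 and 183.6 CPM in Diabetic and 194.9 and 185.4 CPM in Control.

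Among genes of at least 50 CPM that were called, the lowest log2 fold changes were those of mt-Rnr1 and mt-Rnr2, the 2 ribosomal RNAs of the mitochondrial genome. mt-Rnr1 had 762.5 and 1317 CPM in Diabetic and 4080 and 2095 CPM in Control (log2 fold change -1.64 ± 0.30, edgeR adjusted p = 0.027). mt-Rnr2 had 1924 and 3298 CPM in Diabetic and 9354 and 4840 CPM in Control (-1.51 ± 0.30, edgeR adjusted p = 0.033). A lack of overlap between the groups was a condition for naming both genes, and their Control libraries lay far apart. Neither call held without Diabetic 1, without Diabetic 2 or by DESeq2, which also lost those of Mt1, Lrg1, Fkbp5 and Sv2a. The median mitochondrial share of UMIs in S-opsin barcodes was 1.14% and 1.504% in Diabetic and 2.95% and 1.85% in Control, and its part in these values was not tested. All 13 mitochondrial OXPHOS genes were tested and none was called by edgeR, their median log2 fold change being -0.57 beside 0.00022 over all 13738 genes; at an adjusted p of 0.083 mt-Nd2 came closest among those named (788.8 and 1148 CPM in Diabetic, 1564 and 1244 CPM in Control). The 70 nuclear OXPHOS genes had a median of 0.05 and 0 calls.

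Fndc1, Rnf123 and Jag1 fell in Diabetic. A lack of overlap between the groups was a condition for choosing them and was not counted over all genes tested. Rnf123, a ubiquitin ligase gene, had 86.7 and 85.2 CPM in Diabetic and 153.8 and 167.3 CPM in Control (log2 fold change -0.96 ± 0.09, edgeR adjusted p = 0.0015). Fndc1 had 35.8 and 38.7 CPM in Diabetic and 70.5 and 72.8 CPM in Control (-1.003 ± 0.09, edgeR adjusted p = 0.0015). Jag1, a ligand of Notch receptors, had 124.6 and 132.9 CPM in Diabetic and 224.7 and 185.5 CPM in Control (-0.74 ± 0.11, edgeR adjusted p = 0.015). Ptprn (-0.80), Dst, a cytoskeletal linker (-0.79), Nos3, endothelial nitric oxide synthase (-0.77), the chaperone Dnajb1 (-0.68) and Mest (-0.67) completed the 10 lowest called genes of at least 50 CPM.

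**Figure D5:**
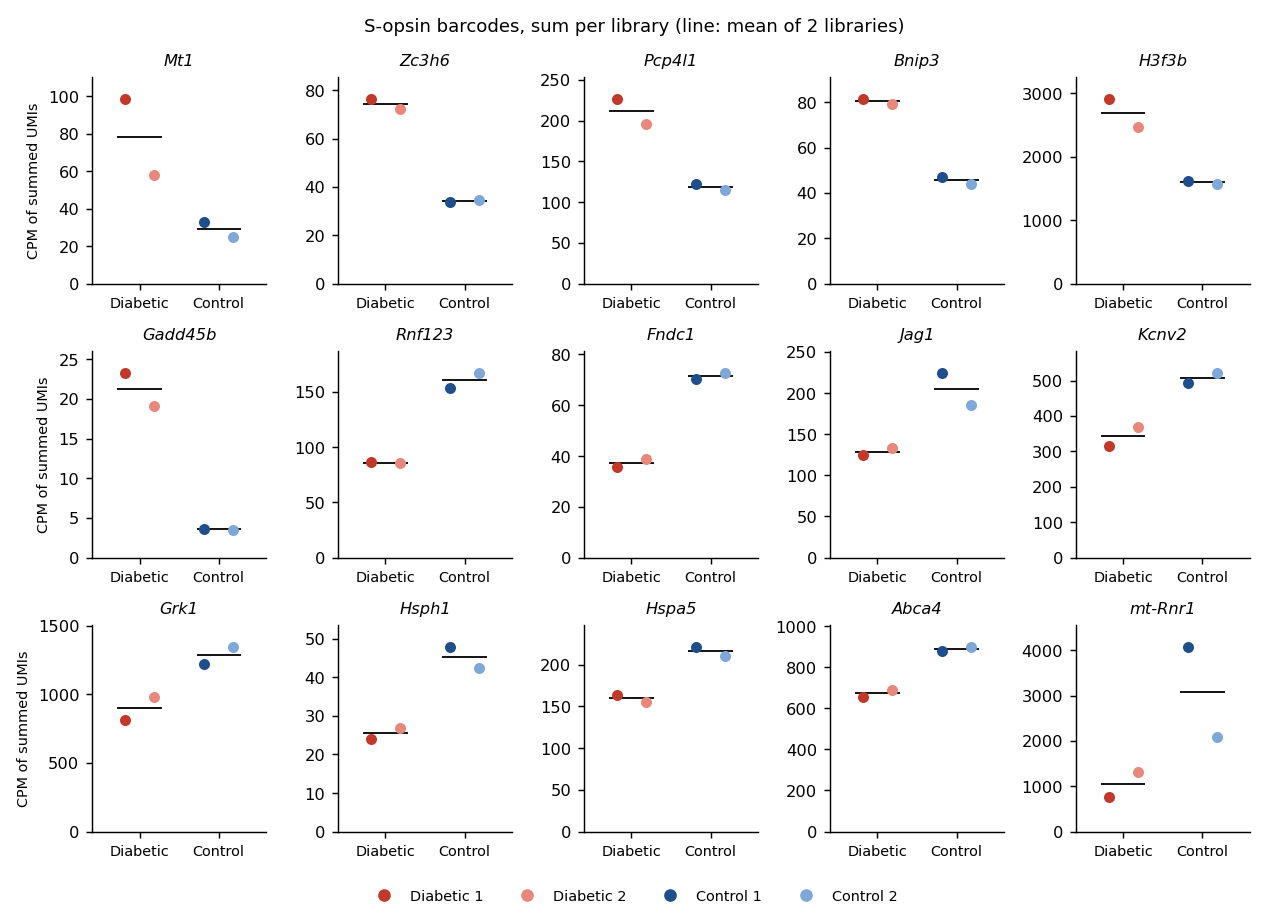
Level (CPM of summed UMIs, linear axes from 0) of 15 genes in S-opsin barcodes of the Diabetic (left of each panel) and Control libraries (right), 1 point per library and a line at the mean of 2 libraries. A lack of overlap between the groups was a condition for choosing the genes not taken from a list. For the listed genes it is no result, as its share was not counted over all genes tested. The 2 Diabetic points of Mt1 and the 2 Control points of mt-Rnr1 lie far apart.

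A few genes of photoreceptor function were lower in Diabetic. In the phototransduction list 0 of 17 tested genes were higher and 3 lower, namely Kcnv2, Grk1 and Gucy2e, with a list median of -0.08. Kcnv2, a potassium channel subunit of photoreceptor inner segments, had 315.2 and 369.0 CPM in Diabetic and 494.0 and 522.0 CPM in Control (log2 fold change -0.63 ± 0.10, edgeR adjusted p = 0.018). Grk1 had 813.6 and 981.6 CPM in Diabetic and 1225 and 1347 CPM in Control (-0.58 ± 0.11, edgeR adjusted p = 0.028), and Gucy2e, a guanylate cyclase that makes cyclic GMP after light, had 568.1 and 594.2 CPM in Diabetic and 730.1 and 728.6 CPM in Control (-0.39 ± 0.08, edgeR adjusted p = 0.044). Of the cone genes, Gngt2 (0.11 ± 0.11), Cnga3 (0.14 ± 0.21), Cngb3 (-0.02 ± 0.10) and Gnb3 (-0.16 ± 0.10) did not pass the test (edgeR adjusted p = 0.584, 0.729, 0.917 and 0.414).

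In the visual cycle list 3 of 12 tested genes were lower, Rdh11 (-0.61 ± 0.10) and Dhrs3 (-0.49 ± 0.09), which convert retinoids, and Abca4, a lipid and retinoid transporter of outer segment discs (656.0 and 689.1 CPM in Diabetic, 879.0 and 899.5 CPM in Control; log2 fold change -0.46 ± 0.09, edgeR adjusted p = 0.028). Of 26 outer segment and cilium genes 3 were lower, Rd3 (-0.47 ± 0.08), Rp1l1 (-0.46 ± 0.09) and Cdhr1 (-0.44 ± 0.08), and 0 higher. Of 30 ribbon synapse genes 2 were lower, the calcium channel Cacna1f (146.5 and 163.0 CPM in Diabetic, 206.3 and 236.7 CPM in Control; -0.57 ± 0.10) and Lrit1 (-0.57 ± 0.10), and 1 higher, the vesicle protein Sv2a (0.48 ± 0.10). The list medians were -0.06, -0.09 and -0.07. All these calls were lost without Diabetic 1, and of them and the 3 phototransduction genes only Kcnv2 and Grk1 kept theirs without Diabetic 2. Without Control 2 those of Grk1, Gucy2e, Dhrs3, Abca4, Rp1l1, Cdhr1, Lrit1 and Sv2a were lost, and without Control 1 that of Gucy2e; in cone-rich barcodes none of the 12 was called, with log2 fold changes there of -0.41 for Cdhr1, -0.50 for Cacna1f, -0.49 for Lrit1, -0.30 for Grk1 and -0.18 for Gucy2e, all 12 keeping their direction.

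Beside these genes stands the rod content, which was lower in Diabetic S-opsin barcodes (rod markers 59794 and 59076 CPM, against 68174 and 70902 CPM in Control). In rod barcodes the same sum was 72492 and 72259 CPM in Diabetic and 73904 and 79316 CPM in Control. Its part in the lower photoreceptor genes was not tested. In rod barcodes Kcnv2 had 305.7 and 339.1 CPM in Diabetic and 411.2 and 436.6 CPM in Control, Grk1 had 730.8 and 797.8 CPM in Diabetic and 964.9 and 1020 CPM in Control, and Rnf123 had 76.6 and 81.3 CPM in Diabetic and 127.5 and 136.8 CPM in Control. Zc3h6 had 66.8 and 79.7 CPM in Diabetic and 30.3 and 38.6 CPM in Control rod barcodes. These rod values share their libraries with the S-opsin values. For no gene of the 365 called here did the Diabetic effect in S-opsin barcodes differ from that in rod barcodes by the test of the difference (364 with a value, smallest edgeR adjusted p = 0.324).

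A number of chaperones were lower. Of 22 heat shock genes tested 5 were lower and 0 higher, with a list median of -0.36, and of 16 endoplasmic reticulum stress genes 3 were lower and 0 higher, with a median of -0.14. Hsph1, a large chaperone of the heat shock response, had 24.0 and 26.9 CPM in Diabetic and 47.9 and 42.4 CPM in Control (log2 fold change -0.90 ± 0.12, edgeR adjusted p = 0.0098). Hspa8, the constitutive heat shock protein of the cytosol, had 274.3 and 329.0 CPM in Diabetic and 387.0 and 494.9 CPM in Control (-0.60 ± 0.13, edgeR adjusted p = 0.039), and Dnajb1, Stip1 and Dnaja1, which work with it, had log2 fold changes of -0.68, -0.63 and -0.53. Of the endoplasmic reticulum chaperones Hspa5 had 163.5 and 155.7 CPM in Diabetic and 221.3 and 210.5 CPM in Control (-0.50 ± 0.09, edgeR adjusted p = 0.022), while Calr had a log2 fold change of -0.48 and Hsp90b1 one of -0.41. No chaperone call held without Diabetic 1, only that of Hsph1 held without Diabetic 2, and without Control 2 those of Hspa8, Dnaja1 and Hsp90b1 were lost (Hsp90b1 also without Control 1). In cone-rich barcodes none was called, with log2 fold changes there of -0.76 for Hsph1, -0.61 for Hspa8, -0.49 for Hspa5 and -0.24 for Hsp90b1.

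Some stress and acute phase genes were higher, 4 of the 15 tested out of 25 listed, with 0 lower and a median of 0.60. Gadd45b, a growth arrest gene induced by stress and cytokines, had 23.3 and 19.1 CPM in Diabetic and 3.67 and 3.54 CPM in Control (log2 fold change 2.49 ± 0.21, edgeR adjusted p = 0.0011). This was the only call of the list that held without Diabetic 1, and it held without Diabetic 2 and in cone-rich barcodes (2.22). Lcn2, an iron-binding acute phase protein, had 15.1 and 14.6 CPM in Diabetic and 5.42 and 7.26 CPM in Control (1.22 ± 0.21, edgeR adjusted p = 0.022), and Fkbp5, induced by glucocorticoids, had 28.8 and 31.8 CPM in Diabetic and 19.1 and 19.4 CPM in Control (0.60 ± 0.12, edgeR adjusted p = 0.037). Lrg1 had 55 UMIs in Diabetic and 0 in Control, at least 21.4-fold higher against a floor of 3 counts over the Control group. Neutrophils express Lcn2 and Lrg1, and neutrophil markers moved the same way in these sums (40.5 and 17.8 CPM in Diabetic, 0.916 and 0.186 CPM in Control). Müller glia markers (981.8 and 1138 CPM in Diabetic, 846.1 and 669.6 CPM in Control) and microglia markers (13.1 and 10.8 CPM in Diabetic, 7.41 and 5.96 CPM in Control) were also higher in both Diabetic sums. The part of these cells in the acute phase and metallothionein values was not tested. Lcn2, Lrg1 and Fkbp5 lost their call without Diabetic 1 and without Diabetic 2.

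Of 27 tested genes of the oxidative stress list 2 were higher, the metallothioneins Mt1 and Mt2 (Mt2 at 11.9 and 8.83 CPM in Diabetic, 2.75 and 2.61 CPM in Control; log2 fold change 1.88 ± 0.28, edgeR adjusted p = 0.017). Of 18 immediate early genes tested 1 was higher, the nuclear receptor Nr4a1 (0.98 ± 0.17), while Fos was not called (177.0 and 171.9 CPM in Diabetic, 152.5 and 104.4 CPM in Control; 0.36 ± 0.15, edgeR adjusted p = 0.195). The clock list gave 1 higher of 17, the repressor Bhlhe41 (203.1 and 214.3 CPM in Diabetic, 151.4 and 138.6 CPM in Control; 0.46 ± 0.09), and the interferon list 1 higher of 19, Irf7 (0.74 ± 0.12). These 5 calls were lost without Diabetic 1, and all but that of Mt1 also without Diabetic 2; that of Bhlhe41 was lost without Control 2 as well. No gene was called by edgeR among 22 regulators of cone fate, 21 glycolysis, 23 glucose and fatty acid, 17 calcium and ion handling or 13 crystallin genes tested. Txnip, which responds to glucose, had 6.72 and 6.96 CPM in Diabetic and 3.67 and 1.68 CPM in Control (1.17 ± 0.35, edgeR adjusted p = 0.1001).

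The Diabetic effect in S-opsin barcodes was finally tested against that in M-opsin barcodes. Of 13496 genes 4 (0.0296%) had a higher and 5 (0.037%) a lower effect in S-opsin barcodes, 0.0667% in all, by the edgeR test of the interaction, while DESeq2 called 0, with 25 at an unadjusted p under 0.05. The cone transducin subunit Gngt2 had 751.5 and 675.1 CPM in Diabetic and 576.9 and 690.5 CPM in Control S-opsin barcodes, and 633.3 and 645.1 CPM in Diabetic and 707.3 and 763.1 CPM in Control M-opsin barcodes (difference of log2 effects 0.40 ± 0.07, edgeR adjusted p = 0.00015). The call was lost without Diabetic 1 and without Diabetic 2. Against rod barcodes, 3 of 13401 genes (0.0224%) had a higher and 1 (0.00746%) a lower effect, 0.0298% in all, by edgeR, while DESeq2 called 0, with 32 at an unadjusted p under 0.05. Gnb3, another cone transducin subunit, had 403.9 and 371.3 CPM in Diabetic and 379.7 and 450.6 CPM in Control S-opsin barcodes, and 61.4 and 51.6 CPM in Diabetic and 134.3 and 107.7 CPM in Control rod barcodes (difference 1.02 ± 0.13, edgeR adjusted p = 0.00010). Gnb3 was lower in both Diabetic rod sums than in both Control ones, whereas in S-opsin barcodes it did not pass the test. Rod barcodes also differed in size, with medians of 7718.5 and 11615 UMIs in Diabetic and 2285 and 4272 UMIs in Control. Cone markers (Arr3, Gnat2, Pde6h and Opn1sw) summed to 130.7 and 86.3 CPM in Diabetic and 207.9 and 108.5 CPM in Control rod barcodes. The part of size and of cone transcripts in the Gnb3 difference was not tested. The call was lost without Control 1, where 0 genes were called by edgeR. Counts moved with every library: against M-opsin barcodes 0 and 0 genes were called without Diabetic 1, 2 and 4 without Diabetic 2, 8 and 0 without Control 1 and 8 and 25 without Control 2. Against rod barcodes they were 5 and 1 without Diabetic 1, 6 and 6 without Diabetic 2 and 15 and 32 without Control 2.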

How the data were processed

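The authors deposited raw UMI counts per gene and barcode, made with Cell Ranger 7.0.0 per the file headers; mm10 and STAR 2.7.10b are further entries in the submitters' processing notes. Per the labels' protocols these were 10x Chromium 3′ libraries. Doublet removal before deposit was not given in the sources used here. The members, gene lists and rules were chosen with earlier results of these data known.

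Each library gave 1 sum of counts per kind of barcode, so n is the number of libraries. The two-sided quasi-likelihood test of edgeR 4.0.16, run in R 4.3.3 with TMM scaling and the filterByExpr filter, compared these sums, and p-values were adjusted by Benjamini-Hochberg; the rule's own 6 genes were left out of the tests. DESeq2 1.42.0 was an alternative. M-opsin barcodes needed at least 5 Opn1mw UMIs and more than 2 times the Opn1sw UMIs. Kinds with at least 20 barcodes in every library were tested. Named genes were the 10 highest and 10 lowest called with a mean of at least 50 CPM that did not overlap (Diabetic against Control) or moved 1 way in 4 libraries (S against M), up to 4 members per list and every called member of a list. Scrublet ran in scanpy 1.11.5; where its automatic threshold marked under 0.5% of a library, the top 0.8% per 1000 cells was marked instead, and doublets were left out only in an alternative. The fits were also run on simulated counts with known changes, drawn independently for each sum and without library effects. That run cannot show how well the calls hold in these libraries.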

Additional observations from a re-analysis of the deposited data

Results flagged for a closer look

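For 9 genes the Diabetic effect differed between S-opsin and M-opsin barcodes by the edgeR test of the interaction. The difference of log2 effects (S minus M) was -1.88 for Hbb-bs, -2.25 for Hba-a1, -0.825 for Rgs5, 0.458 for Tmsb10, 0.399 for Gngt2, -0.751 for Ccdc85c, 0.642 for Dapl1, 0.354 for Apoe and -1.19 for Fn3krp. The globin Hbb-bs had 31.2 and 23.7 CPM in Diabetic and 82.8 and 19.5 CPM in Control S-opsin barcodes, against 30.9 and 24.5 CPM in Diabetic and 16.2 and 14.1 CPM in Control M-opsin barcodes, so Control 1 was the highest S-opsin sum. The erythrocyte list, which contains Hbb-bs and Hba-a1 and is thus no separate evidence, had 49.9 and 35.7 CPM in Diabetic and 128.5 and 32.4 CPM in Control S-opsin barcodes. Ccdc85c (73.4 CPM in Control 1 against 40.3 to 44.3 CPM in the other S-opsin sums) and Fn3krp (30.5 CPM against 9.61 to 12.8 CPM) showed the same single high library. Rgs5, a pericyte gene, was high in both Diabetic 1 and Control 1 (80.9 and 42.8 CPM in Diabetic, 103.1 and 18.6 CPM in Control S-opsin barcodes). Tmsb10 had 303.2 and 262.9 CPM in Diabetic and 232.2 and 243.1 CPM in Control S-opsin barcodes, against 291.2 and 303.9 CPM in Diabetic and 326.3 and 351.4 CPM in Control M-opsin barcodes. Apoe, a lipid carrier made by Müller glia, had 208.0 and 215.9 CPM in Diabetic and 148.6 and 107.4 CPM in Control S-opsin barcodes, and was the only gene called both here and for Diabetic against Control in S-opsin barcodes. Dapl1 had 53.1 and 50.04 CPM in Diabetic and 38.2 and 30.5 CPM in Control S-opsin barcodes.

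Against rod barcodes the effect differed in 4 genes, by 1.02 for Gnb3, 0.713 for Gm37764, 0.816 for Gm37376 and -1.16 for Hbb-bs. That of Hbb-bs turned to 0.79 without the barcodes marked by Scrublet, where it passed the test in the other direction (edgeR adjusted p = 0.047).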

How the results depend on the processing

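For Diabetic against Control in S-opsin barcodes (196 higher and 169 lower), DESeq2 called 102 higher, no low-count filter gave 625 and 674, thinning to 1000 UMIs 1 and 6 of 4025 genes tested, and a ratio of 5 and of 1 gave 101 and 112 lower. Cone-rich barcodes, chosen after seeing the data, gave 24 and 10 of 10058 tested. Leaving out 1 library gave 6 to 519 higher and 1 to 475 lower. Whether libraries of the same replicate number shared a batch or a pairing was not given in the sources used here. Their deviations correlated at r = 0.27 across genes, and 2 pairs cannot tell whether they belong together. With the replicate block 958 genes were higher and 1011 lower. For S-opsin against M-opsin barcodes (170 and 241), DESeq2 gave 39 and 72, no filter 334 higher, no replicate block 18 and 26, thinning 5 and 8, and cone-rich barcodes 28 and 43, with 110 to 131 higher and 183 to 219 lower when 1 library was left out. For the Diabetic effect against M-opsin barcodes (4 and 5), DESeq2, thinning and cone-rich barcodes gave 0 and 0, leaving out Scrublet doublets 2 and 0, no filter 12 lower and the replicate block 8 lower, with 0 to 8 higher and 0 to 25 lower over libraries left out. Against rod barcodes (3 and 1), DESeq2 gave 0 and 0, no filter 9 and 9, the replicate block 8 and 5, leaving out Scrublet doublets 8 and 7, thinning 0 lower and cone-rich barcodes 3 lower, with 0 to 15 higher and 1 library left out giving 0 to 32 lower. The share of S-opsin barcodes (-1.51 points) was -5.84 with a ratio of 1 and turned to 5.25 with a ratio of 5, 1.58 after thinning and 1.31 in cone-rich barcodes, and ranged from -4.23 to 1.20 over libraries left out. Single genes turned as well: Rgs9bp (-0.049), Atf4 (-0.062) and Oga (-0.0017) after thinning, Dapl1 (-0.25) and Ccdc85c (0.049) in cone-rich barcodes, and Hbb-bs against rod barcodes to 0.79 without Scrublet doublets, 1.83 after thinning and 0.43 in cone-rich barcodes. Thinning and the cone-rich limit leave fewer genes tested; other causes were not tested. S-opsin barcodes without against with Opn1mw were not run, as Control 2 had 10 barcodes without it against a minimum of 20.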
